A study of Homo sapiens with 4 samples.

Results

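The 41 genes described here belong to autophagy and the lysosome and form a list of named genes: the ATG8 proteins, the initiation, nucleation and conjugation machinery, the cargo receptors, the TFEB family with its controls, and proteins of the lysosome. All 41 were found among the 59652 genes of the count table. RNA was sequenced from Huh7 and PLC cells, both human hepatocellular carcinoma lines with the genotype given as WT, to find lncRNAs whose expression differs between low and high glucose, and the table covers all other genes as well. Cells of each line were grown in DMEM made without glucose and given either 5 mM glucose (low glucose) or 25 mM glucose (high glucose) for 48 h, and the medium of all 4 groups held 10% FBS. There was 1 library for each line and glucose concentration, so no difference within a line has a replicate check. Each line stands for itself as a model, since both are established tumour lines and no normal hepatocytes were included.

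Autophagy encloses cytoplasm in a double membrane, the autophagosome, which fuses with the lysosome, where hydrolases break its content down. The kinase complex around ULK1 starts the process, a lipid kinase complex around BECN1 marks the site, and a ubiquitin-like conjugation system attaches ATG8 proteins to the growing membrane, where cargo receptors bind them. In fed cells mTORC1 on the lysosome holds ULK1 and the transcription factors TFEB, TFE3 and MITF inactive. When nutrients are scarce these factors enter the nucleus and switch on lysosomal and autophagy genes through a short promoter element with an E-box core.

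Because that element is defined by its letters, the promoters of the genes were searched for it. RefSeq promoters (GRCh38.p14, 250 bases before to 50 bases after the start of the gene) were at hand for 34 of the 41 genes, and UVRAG, RRAGD, LAMP2, CTSB, HEXA, ATP6V1A and ATP6V1H had no entry. The E-box CACGTG, which reads the same on both strands, occurred in 9 of the 34 promoters (26.5%), against 7.43% of 27305 promoters. These were ATG14, ATG3, FNIP1, LAMP1, MCOLN1, CTSA, CTSD, NEU1 and ATP6V0D1, and all 9 also held the longer form TCACGTG on one of the strands, which contains CACGTG and occurred in 3.82% of all promoters. CACGTG was found at 2 or more places in 5 of the 34 promoters, against 0.696% of all promoters. LAMP1 was the only promoter among the 27305 with 6 of them. A match is a description of these letters and not a bound site. The promoters below are shown for NEU1, which passed the test of a shared change with glucose, and for the genes with 2 or more E-boxes and a role at the lysosome or in its control. They are written in the direction of the gene, and the capitals mark CACGTG.
NEU1, chr6:31862772-31863071, minus strand: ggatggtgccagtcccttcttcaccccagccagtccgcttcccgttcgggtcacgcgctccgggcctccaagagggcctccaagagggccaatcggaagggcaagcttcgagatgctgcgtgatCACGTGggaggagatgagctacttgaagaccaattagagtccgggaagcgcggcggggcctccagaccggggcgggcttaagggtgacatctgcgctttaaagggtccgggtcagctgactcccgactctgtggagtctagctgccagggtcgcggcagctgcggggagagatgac
CTSA, chr20:45891085-45891384, plus strand: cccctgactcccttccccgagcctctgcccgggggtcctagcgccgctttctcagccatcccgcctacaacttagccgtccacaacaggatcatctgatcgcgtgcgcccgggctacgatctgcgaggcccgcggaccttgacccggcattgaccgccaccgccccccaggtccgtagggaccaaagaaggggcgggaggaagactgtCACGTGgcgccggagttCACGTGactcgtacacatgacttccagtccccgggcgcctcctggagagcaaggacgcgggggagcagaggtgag
FNIP1, chr5:131796968-131797267, minus strand: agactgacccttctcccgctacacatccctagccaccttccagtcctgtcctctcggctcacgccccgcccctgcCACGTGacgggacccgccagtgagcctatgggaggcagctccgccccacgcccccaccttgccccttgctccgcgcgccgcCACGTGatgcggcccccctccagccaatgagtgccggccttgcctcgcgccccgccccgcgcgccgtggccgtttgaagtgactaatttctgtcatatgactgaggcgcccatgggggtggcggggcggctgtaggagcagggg
LAMP1, chr13:113296989-113297288, plus strand: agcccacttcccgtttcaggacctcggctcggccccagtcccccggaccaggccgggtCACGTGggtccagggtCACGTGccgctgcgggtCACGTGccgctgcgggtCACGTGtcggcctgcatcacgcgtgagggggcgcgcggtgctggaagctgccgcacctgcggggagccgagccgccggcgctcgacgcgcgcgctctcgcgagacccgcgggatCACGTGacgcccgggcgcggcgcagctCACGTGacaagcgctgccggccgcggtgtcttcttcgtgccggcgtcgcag
MCOLN1, chr19:7522374-7522673, plus strand: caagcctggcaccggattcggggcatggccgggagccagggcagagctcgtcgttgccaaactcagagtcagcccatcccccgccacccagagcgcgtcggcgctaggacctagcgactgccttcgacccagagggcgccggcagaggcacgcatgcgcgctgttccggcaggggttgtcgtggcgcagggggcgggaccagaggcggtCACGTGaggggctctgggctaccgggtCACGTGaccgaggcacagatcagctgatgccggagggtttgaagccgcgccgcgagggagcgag

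Expression is given as FPKM, for which the deposited count of a gene was divided by its length and by the sum of counts in the library. The high-glucose to low-glucose ratio was taken within each line after 0.1 was added to both FPKM values. The thresholds of the study were used, which are FPKM over 0.5 (here in at least 1 library of the line) and a ratio over 1.5 or under 0.67. Ratios are followed by an exact Clopper-Pearson 95% interval without the added 0.1, which allows for counting error alone and sets 1 library against 1 other. The libraries held 16049686 to 30279716 counted reads, with PLC at 25 mM the shallowest. All 15 hepatocyte markers had FPKM over 1 in both Huh7 libraries. In each PLC library 12 of 15 did, with APOA1 under 1 only at 5 mM and RBP4 only at 25 mM. The summed FPKM of the 15 markers was 7364 and 7047 in Huh7 and 953 and 1923 in PLC at 5 and 25 mM. TTR had 0 reads in PLC at 25 mM. Markers of fibroblasts (6 genes, summed FPKM 0.716 to 7.61) and endothelium (5 genes, 0.136 to 2.56) were low, with KDR at 0 reads in all libraries, as was CD3E among the 6 immune markers. The summed FPKM of immune markers ran from 4.27 in PLC at 5 mM to 39.9 in Huh7 at 25 mM, mostly from LYZ. The higher hepatocyte sum at 25 mM in PLC goes along with the glucose results of that line, and its part in them was not tested.

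Most of the lysosomal enzymes, LAMP1 and LAMP2, the controls of the TFEB family and the receptor SQSTM1 had lower FPKM at 25 mM than at 5 mM glucose in both lines, while the machinery that builds the autophagosome was divided. Library totals set the scale here. The ratio was below 1 in 27 of the 38 genes with enough FPKM in Huh7 (46.3% of all genes) and in 27 of 40 in PLC (43.5% of all genes), and in both lines in 23 of 38 (23.5% of all genes). With TMM scaling it was below 1 in 29 of 38 genes in Huh7 (50.1% of all genes), in 31 of 40 in PLC (50.4% of all genes) and in both lines in 26 of 38 (29.4% of all genes). The interval excluded 1 on the lower side in 24 genes in Huh7 (19.4% of all genes) and 27 in PLC (22.7% of all genes), and on the upper side in 5 (25% of all genes) and 8 (33.2% of all genes). The interval of the ratio lay wholly below 1 in both lines in 20 of 38 genes, against 8.58% of all genes, and wholly above 1 in 4, against 14% of all genes. The 4 were GABARAPL1, ATG13, WIPI2 and NBR1. An interval for counting error excludes 1 more readily in a gene with many reads. The shares of all genes were not matched for read number. The thresholds were passed downwards in Huh7 by 5 genes (13.7% of all genes), SQSTM1, FLCN, FNIP1, RRAGD and NEU1, and upwards by 0 (14.1% of all genes). In PLC 10 genes passed downwards (17% of all genes), ATG101, ATG14, UVRAG, ATG16L1, SQSTM1, TFE3, MITF, RRAGD, CTSD and NEU1. WIPI2 and NBR1 passed upwards (2 of 40, against 26.2% of all genes). With TMM scaling 16 genes passed downwards in PLC, FNIP1, TAX1BP1, OPTN, LAMP1, CTSA and HEXA in addition, and NBR1 (1.46) no longer passed upwards. In Huh7 7 genes passed downwards with TMM scaling, CTSA (0.662) and CTSD (0.660) in addition. TMM scaling lowered the ratio of every gene in both lines, and the share of all genes past the thresholds with it is not given here. With library totals the 5 of 38 in Huh7 (13.2%) are close to the share of all genes, and the 10 of 40 in PLC (25%) are above it. SQSTM1, RRAGD and NEU1 passed downwards in both lines (3.82% of all genes) and 0 genes passed upwards in both (5.3% of all genes). In bulk RNA, fewer cells that express a gene and less of its RNA per cell cannot be told apart.

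**Figure D1:**
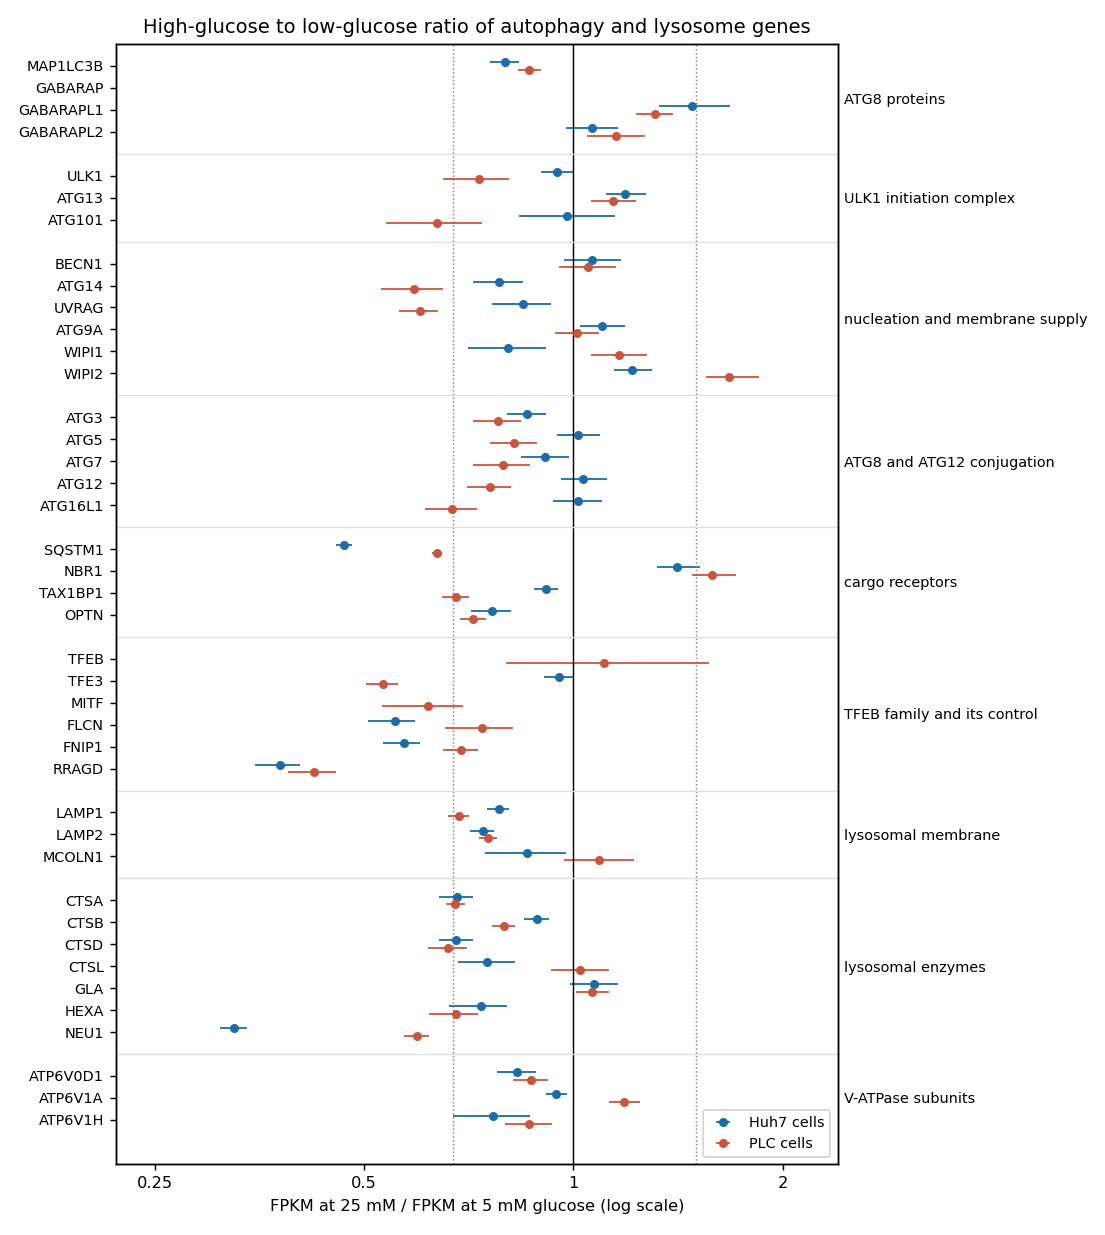
High-glucose to low-glucose ratio of FPKM for each gene (horizontal axis, log scale), grouped by role, in Huh7 (blue) and PLC (red) cells, 1 pair of libraries each. Bars are exact 95% intervals for counting error, dotted lines are the thresholds 0.67 and 1.5, genes under the FPKM minimum in a line are not drawn, and RRAGD lies far to the left in both lines and NEU1 in Huh7, while GABARAPL1, ATG13, WIPI2 and NBR1 lie to the right.

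**Figure D2:**
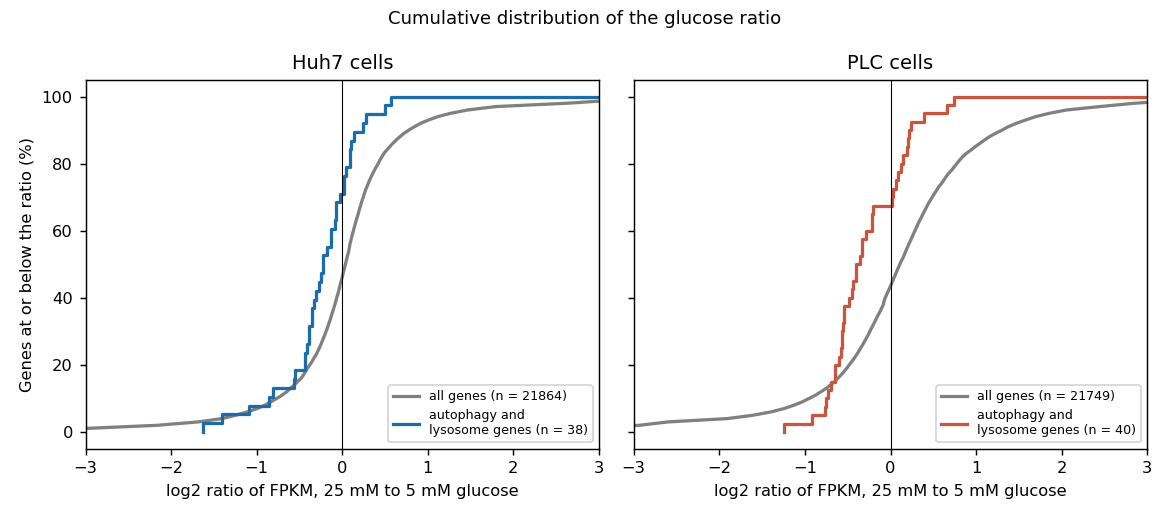
Share of genes (vertical axis, %) at or below each log2 ratio of FPKM, 25 mM to 5 mM glucose, for all genes with enough FPKM (grey, n = 21864 in Huh7 and 21749 in PLC) and for the autophagy and lysosome genes (coloured, n = 38 and 40). The coloured curves lie to the left over most of the range, with medians of -0.22 against 0.04 in Huh7 and -0.38 against 0.11 in PLC.

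A change common to Huh7 and PLC was sought with the quasi-likelihood test of edgeR on the counts of all 23217 genes that passed its filter. The line was kept as a block, and p-values were adjusted over all of these genes by the method of Benjamini and Hochberg. The lines stand in for replicates there, with 1 residual degree of freedom. All 41 genes were tested. RRAGD and NEU1 fell past an adjusted p of 0.05 (2 of 41, against 0.314% of all genes), and 0 rose (against 0.0646% of all genes), as with DESeq2 and limma-voom. At an unadjusted p under 0.05 by edgeR, 15 genes were lower (4.36% of all genes) and 1, NBR1, was higher (4.14% of all genes). The shares of all genes in the edgeR tests, here and below, were not matched for read number. DESeq2 and limma-voom each called SQSTM1 lower beside RRAGD and NEU1. With at least 10 counts required in every library, or without the line as a block, 0 of the 41 genes passed in edgeR. The median log2 change was -0.35 over the 41 genes and -0.01 over all genes tested. It was -0.75 in the TFEB family and its control, -0.60 in lysosomal enzymes, -0.50 in lysosomal membrane proteins, -0.47 in cargo receptors, -0.35 in the ULK1 complex, -0.32 in conjugation, -0.32 in V-ATPase subunits, -0.06 in nucleation and membrane supply, and 0.05 in ATG8 proteins. Both 25 mM libraries had lower FPKM than both 5 mM libraries in 8 of 40 genes (6.69% of all genes), namely ATG14, ATG7, TAX1BP1, TFE3, FNIP1, RRAGD, CTSD and NEU1. The opposite held for 3 of 40 (10.8% of all genes), GABARAPL2, ATG13 and NBR1.

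The controls of the TFEB family held the gene with the most marked shared decrease. RRAGD encodes RagD, a small GTPase of the Rag heterodimer that brings mTORC1 to the lysosome and presents TFEB and TFE3 to it. It had 2094 reads in Huh7 at 5 mM and 1106 at 25 mM, and 3362 and 749 in PLC, which is FPKM 19.2, 7.22, 21.8 and 9.16. Both high-glucose libraries lay below both low-glucose libraries, and the levels of the lines at the same glucose were close. The ratio was 0.379 (0.349 to 0.404) in Huh7 and 0.423 (0.388 to 0.455) in PLC. RRAGD fell by 1.41 on the log2 scale (SE 0.23, edgeR adjusted p = 0.0198), a decrease of 2.66-fold. The gene lies on chromosome 6 (89364616 to 89412273, hg38, minus strand), and its exons overlap no exon of another gene in the table.

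FLCN and FNIP1, which form the folliculin complex that acts on the Rag GTPases at the lysosome, were lower at 25 mM in both lines. FLCN had FPKM 7.09, 3.89, 3.81 and 2.79 in Huh7 at 5 and 25 mM and PLC at 5 and 25 mM, and its ratios were 0.554 (0.507 to 0.592) and 0.738 (0.653 to 0.817). FNIP1 had FPKM 13.8, 7.83, 18.1 and 12.4 in the same order, with ratios of 0.569 (0.533 to 0.602) and 0.689 (0.648 to 0.728). With library totals both passed the threshold in Huh7 and neither in PLC. They missed the adjusted threshold of the shared test, with log2 changes of -0.74 (SE 0.25) for FLCN and -0.76 (SE 0.22) for FNIP1 and edgeR adjusted p of 0.305 and 0.206.

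Of the transcription factors themselves, TFE3 made up nearly all of the RNA per length. TFEB had 15, 30, 99 and 59 reads in Huh7 at 5 and 25 mM and PLC at 5 and 25 mM (FPKM 0.124, 0.177, 0.579 and 0.651), under the FPKM minimum in Huh7. Its ratio in PLC was 1.11 (0.800 to 1.57), so a difference was not detectable at this depth. MITF had 10, 5, 903 and 291 reads and was near 0 in Huh7. In PLC MITF stood at FPKM 4.10 and 2.49, a ratio of 0.617 (0.531 to 0.695), which did not pass with a pseudocount of 1. TFE3 had FPKM 29.6 and 28.2 in Huh7 and 51.9 and 27.5 in PLC. Its ratio was 0.953 (0.906 to 1.002) in Huh7 and 0.531 (0.503 to 0.558) in PLC, past the threshold in PLC alone. With TMM scaling and with DESeq2 size factors the Huh7 interval of TFE3 lay below 1. The difference between the lines could not be tested. The share of TFE3 in the summed FPKM of the 3 factors was 99.4% and 99.3% in Huh7 and 91.7% and 89.7% in PLC at 5 and 25 mM. Adjusted p in the shared test of edgeR was 0.541 for TFE3, 0.447 for MITF and 0.977 for TFEB, with log2 changes of -0.57, -0.98 and 0.23.

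Lysosomal enzymes were lower at 25 mM in 6 of 7 genes in Huh7 and 5 of 7 in PLC, and NEU1 was the gene that passed the test. NEU1 encodes the sialidase that removes terminal sialic acids in the lysosome, and its enzyme is held stable by the carboxypeptidase CTSA. Reads of NEU1 were 6385 in Huh7 at 5 mM, 2911 in Huh7 at 25 mM, 9321 in PLC at 5 mM and 2935 in PLC at 25 mM. FPKM was 63.0, 20.4, 65.0 and 38.6, so the lines had nearly the same level at 5 mM and both high-glucose libraries lay below. The ratio was 0.325 (0.310 to 0.339) in Huh7, the lowest of all 41 genes in that line, and 0.595 (0.570 to 0.619) in PLC. NEU1 fell by 1.27 on the log2 scale (SE 0.24, edgeR adjusted p = 0.0424), a decrease of 2.41-fold. It lies on chromosome 6 (31857659 to 31862822, hg38, minus strand), and its promoter, printed above, holds 1 E-box.

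CTSA and CTSD, the latter an aspartic protease, had closely similar ratios in both lines. CTSA had FPKM 19.9 and 13.5 in Huh7 and 87.1 and 58.9 in PLC at 5 and 25 mM. Its ratios of 0.680 (0.641 to 0.718) and 0.676 (0.655 to 0.697) lay just outside the threshold of 0.67. CTSD had FPKM 38.2, 25.8, 40.2 and 26.5, and its ratios were 0.678 (0.640 to 0.716) and 0.660 (0.618 to 0.702), the latter just inside. HEXA, a subunit of the hexosaminidase that degrades gangliosides, had ratios of 0.737 (0.661 to 0.802) and 0.677 (0.620 to 0.728). The cysteine protease CTSB had ratios of 0.886 and 0.794, with both intervals below 1. CTSL, another cysteine protease, had 0.751 (0.683 to 0.824) in Huh7 and 1.02 (0.928 to 1.12) in PLC, which was 0.940 with TMM scaling. GLA, the alpha-galactosidase that degrades globosides, stood at 1.07 (0.988 to 1.16) and 1.06 (1.01 to 1.12), and with TMM scaling its PLC ratio was 0.980. The edgeR adjusted p of these 6 enzymes lay between 0.267 for CTSA and 0.999 for GLA. At an unadjusted p under 0.05, CTSA, CTSD and HEXA were lower together with NEU1.

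Of the lysosomal membrane proteins, LAMP1 and LAMP2 had ratios below 1 in both lines. They are abundant glycoproteins that line the inner face of the membrane, and had FPKM 45.8, 35.7, 68.8 and 47.0 (LAMP1) and 24.5, 18.1, 55.1 and 41.5 (LAMP2) in Huh7 at 5 and 25 mM and PLC at 5 and 25 mM. Within each line the high-glucose library was the lower. The ratios were 0.780 (0.752 to 0.808) and 0.684 (0.660 to 0.708) for LAMP1 and 0.740 (0.710 to 0.769) and 0.754 (0.732 to 0.776) for LAMP2. MCOLN1, the calcium channel of the lysosome, had 0.856 (0.747 to 0.974) in Huh7 and 1.09 (0.969 to 1.22) in PLC, with DESeq2 size factors on the other side of 1 in PLC. In the shared test the edgeR adjusted p was 0.434 for LAMP1, 0.457 for LAMP2 and 0.976 for MCOLN1.

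The V-ATPase pumps protons into the lysosome, and its 3 subunits in the list had no common direction. ATP6V0D1, in the membrane sector, had ratios of 0.830 (0.775 to 0.884) and 0.869 (0.818 to 0.920). ATP6V1H, in the soluble sector, had 0.767 (0.671 to 0.865) and 0.864 (0.798 to 0.932). ATP6V1A, the catalytic subunit, had FPKM 50.5 and 47.6 in Huh7 and 25.9 and 30.6 in PLC. Its ratio was 0.944 (0.912 to 0.978) in Huh7 and 1.18 (1.13 to 1.24) in PLC. The edgeR log2 change of ATP6V1A was 0.00 (SE 0.20).

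Among the cargo receptors, SQSTM1 and NBR1 had ratios on opposite sides of 1. SQSTM1 (p62) links ubiquitinated proteins to ATG8 proteins and is itself degraded by autophagy. It had 13691 reads in Huh7 at 5 mM, 9011 in Huh7 at 25 mM, 50564 in PLC at 5 mM and 17041 in PLC at 25 mM, which is FPKM 85.0, 39.7, 222 and 141. That was the highest FPKM of the 41 genes in every library but Huh7 at 25 mM, where ATP6V1A stood at 47.6. The ratio was 0.468 (0.455 to 0.480) in Huh7 and 0.636 (0.625 to 0.647) in PLC, past the threshold in both lines. The shared log2 change was -0.95 (SE 0.19) with an edgeR adjusted p of 0.0529, above 0.05, while DESeq2 gave an adjusted p of 0.00264 and limma-voom 0.0381. SQSTM1 lies on chromosome 5 (179806398 to 179838078, hg38, plus strand). Its exons overlap 1582 of 7535 bases with MRNIP and 105 with MGAT4B, both on the opposite strand, and both had fewer reads than SQSTM1 in all libraries.

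NBR1, a relative of SQSTM1 that shares cargo with it, was higher at 25 mM. Its FPKM was 6.29, 8.92, 6.27 and 9.99 in Huh7 at 5 and 25 mM and PLC at 5 and 25 mM, and both high-glucose libraries lay above both low-glucose libraries. The ratio was 1.41 (1.32 to 1.52) and 1.58 (1.48 to 1.71), the latter past the threshold, and the log2 change of 0.51 (SE 0.23) did not pass (edgeR adjusted p = 0.565). OPTN, a receptor of damaged mitochondria and bacteria, had FPKM 15.2, 11.6, 48.7 and 34.9 and ratios of 0.763 (0.712 to 0.814) and 0.717 (0.686 to 0.748). TAX1BP1, a receptor of ubiquitinated cargo, had ratios of 0.913 (0.876 to 0.951) and 0.678 (0.647 to 0.708). SQSTM1 made up 66.8% of the summed FPKM of the 4 receptors in Huh7 at 5 mM and 50.2% at 25 mM, and 73.3% and 69.3% in PLC.

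The ATG8 proteins, which coat the growing membrane, showed no common direction. MAP1LC3B (LC3B) had FPKM 30.4, 24.2, 56.0 and 48.4 in Huh7 at 5 and 25 mM and PLC at 5 and 25 mM, with ratios of 0.797 (0.759 to 0.835) and 0.864 (0.831 to 0.897). GABARAPL1 had FPKM 4.84, 7.22, 20.9 and 27.3 in the same order, with ratios of 1.48 (1.33 to 1.68) and 1.31 (1.23 to 1.39). GABARAPL2 had FPKM 13.9, 14.8, 12.3 and 14.2, and its ratios were 1.06 (0.976 to 1.16) and 1.15 (1.05 to 1.27). GABARAPL1 thus lay above 1 in both lines also with TMM scaling (1.44 and 1.20), while MAP1LC3B lay below (0.775 and 0.794). In the shared test MAP1LC3B (log2 change -0.35) and GABARAPL1 (0.40) each had an edgeR adjusted p of 0.743. GABARAP was listed with 12, 13, 11 and 9 reads, too few for a ratio. Its exons share 691 of 1951 bases with another gene on the same strand (AC120057.2, 0 reads in all libraries) and 250 with a gene on the opposite strand (AC120057.3), and how reads shared by genes were counted is not given in the sources used here. MAP1LC3B held 61.5% and 52.1% of the summed FPKM of the 4 ATG8 genes in Huh7 and 62.7% and 53.6% in PLC at 5 and 25 mM, and GABARAPL1 9.79% and 15.6%, and 23.4% and 30.3%. The shares take the low GABARAP count as listed, and whether reads of GABARAP were lost in counting was not tested.

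**Figure D3:**
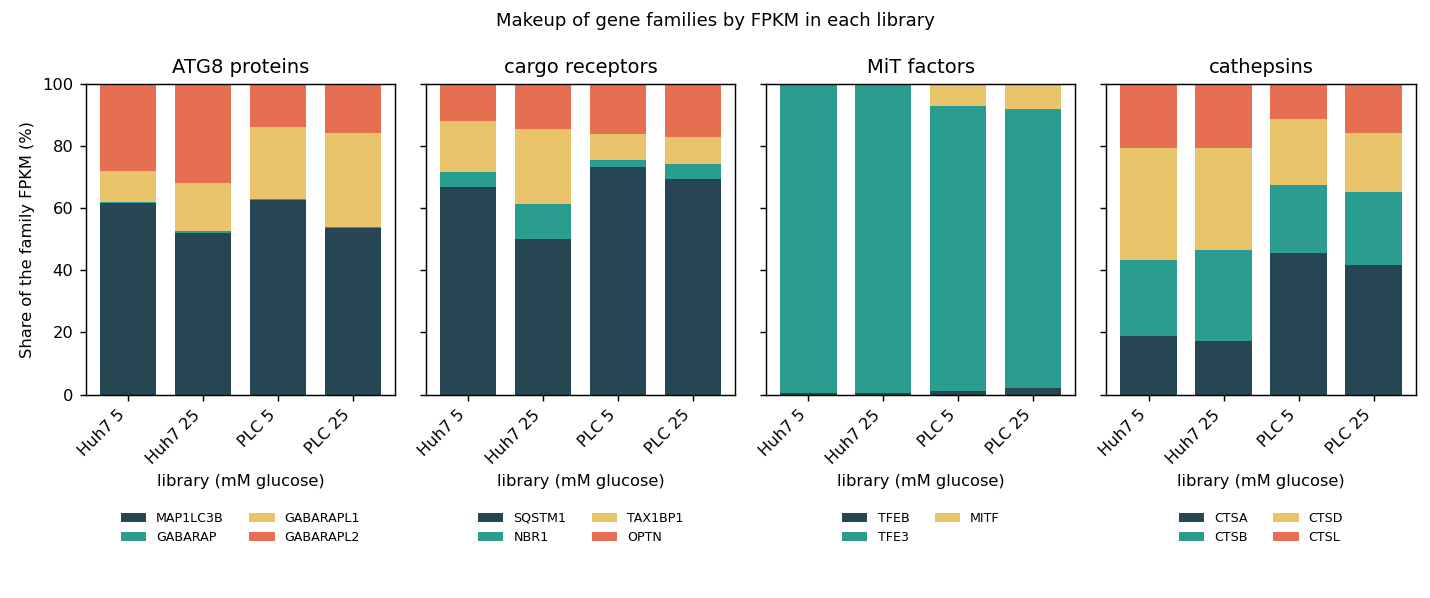
Share of each gene in the summed FPKM of its family (vertical axis, %) in the 4 libraries (horizontal axis, line and mM glucose), for the ATG8 proteins, the cargo receptors, the MiT factors (TFEB, TFE3 and MITF) and the cathepsins, 1 library per bar. MAP1LC3B and SQSTM1 take a smaller share at 25 mM in both lines, TFE3 takes at least 89.7% of the MiT factors in every library, and CTSA takes a larger share of the cathepsins in PLC than in Huh7. The ATG8 shares take the low GABARAP count as listed.

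In the ULK1 complex, with library totals, the kinase and ATG101 had intervals below 1 in PLC and intervals that held 1 in Huh7. With TMM scaling and with DESeq2 size factors the Huh7 interval of ULK1 lay below 1 as well. ULK1 had FPKM 14.1, 13.3, 5.11 and 3.70 in Huh7 at 5 and 25 mM and PLC at 5 and 25 mM, with ratios of 0.947 (0.897 to 1.0001) and 0.730 (0.649 to 0.809). ATG101, a stabiliser of the complex, had FPKM 3.96, 3.88, 6.61 and 4.17, with ratios of 0.978 (0.834 to 1.15) and 0.636 (0.538 to 0.738), the latter not past the threshold with a pseudocount of 1. ATG13, the adaptor subunit, had 1.19 (1.11 to 1.27) and 1.14 (1.06 to 1.23), and with TMM scaling the PLC value was 1.05, no longer clear of 1. None of the 3 passed the shared test (edgeR adjusted p 0.808 for ULK1, 0.830 for ATG101 and 0.967 for ATG13).

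In nucleation, the subunits that tell the forms of the BECN1 lipid kinase complex apart had ratios below 1 in both lines. ATG14, which directs the complex to autophagosome formation, had FPKM 10.1, 7.87, 10.4 and 6.10 in Huh7 at 5 and 25 mM and PLC at 5 and 25 mM, with ratios of 0.781 (0.717 to 0.847) and 0.590 (0.528 to 0.648). UVRAG, which directs it to endosomes, had FPKM 4.90, 4.12, 17.4 and 10.4, with ratios of 0.845 (0.764 to 0.928) and 0.600 (0.561 to 0.638). Both passed the threshold in PLC and neither in Huh7. BECN1 itself had ratios of 1.06 and 1.05 and ATG9A, the lipid scramblase of the seed vesicles, 1.10 and 1.01, and with TMM scaling the PLC values were 0.965 and 0.931. WIPI2, which reads the phosphoinositide and recruits the conjugation machinery, had FPKM 8.16, 9.92, 3.86 and 6.53 and ratios of 1.21 (1.14 to 1.30) and 1.68 (1.55 to 1.85). Its relative WIPI1 had FPKM 6.12, 4.91, 11.5 and 13.3, with a ratio of 0.806 (0.706 to 0.914) in Huh7 and 1.16 (1.06 to 1.28) in PLC. With TMM scaling the PLC interval of WIPI1 was 0.974 to 1.17, which holds 1. In the shared test ATG14 had a log2 change of -0.64, UVRAG of -0.58 and WIPI2 of 0.44, with edgeR adjusted p of 0.449, 0.507 and 0.699.

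The conjugation genes ATG3, ATG5, ATG7, ATG12 and ATG16L1 were lower in PLC in all 5, with ratios from 0.6696 to 0.820, and lay between 0.857 and 1.03 in Huh7, where ATG5 and ATG16L1 moved from above to below 1 with TMM scaling (0.990 and 0.987). ATG16L1, the scaffold of the ligase, passed the threshold in PLC by the narrowest margin of the 10 genes, and not with a pseudocount of 1 or with the trend on GC content and length removed (0.720). Its FPKM was 8.03 and 8.14 in Huh7 and 11.3 and 7.56 in PLC. ATG12 is joined to ATG5 in this system. ATG3 and ATG7, the enzymes that respectively carry and activate ATG8 proteins, had intervals below 1 in both lines. None of the 5 had an edgeR unadjusted p under 0.05.

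Set side by side over the 38 genes with enough FPKM in both lines, the log2 ratios of Huh7 and PLC had a Pearson r of 0.66 and a Spearman rho of 0.59, against 0.12 and 0.20 over 18108 genes. These values are a description, since the genes of a pair of libraries share their depth and composition. The 18108 genes were not matched to the 38 for read number, and ratios of genes with few reads carry more counting error. A difference of the glucose response between the lines could not be tested with 1 library per group.

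Among the 34 genes with a promoter entry, those with an E-box lay lower in the shared comparison than those without. The median log2 change was -0.64 over the 9 genes with CACGTG and -0.26 over the 25 without, and 6 of 9 against 5 of 25 were lower at an unadjusted p under 0.05 by edgeR. Over all genes tested with a promoter entry, the median was -0.10 in the 1181 with CACGTG and -0.01 in the 11256 without, and 8.89% against 5.20% were lower at that p. The 6 genes were NEU1, FNIP1, CTSD, ATG14, CTSA and LAMP1. MCOLN1, with 2 E-boxes, had a log2 change of -0.13, and LAMP1, with 6, of -0.53, less than that of NEU1 with 1. SQSTM1 and FLCN were lower with no CACGTG in the window searched. The 7 genes without a promoter entry are in neither group. Of these, RRAGD (-1.41), HEXA (-0.60), UVRAG (-0.58) and LAMP2 (-0.50) were lower at an unadjusted p under 0.05 by edgeR. CTSB (-0.33), ATP6V1H (-0.38) and ATP6V1A (0.00) were not. Lysosomal genes are more common among the genes with CACGTG, so role and E-box cannot be told apart here. The counts are few and the difference between the genes with and without CACGTG was not tested.

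With glucose as a block, 15 of 41 genes were higher in PLC than in Huh7 (21.1% of all genes) and 4 were lower (21.8% of all genes) at an edgeR adjusted p under 0.05. Those higher were MAP1LC3B, GABARAPL1, UVRAG, WIPI1, SQSTM1, OPTN, TFEB, MITF, LAMP2, CTSA, CTSB, GLA, HEXA, ATP6V0D1 and ATP6V1H, and those lower were ULK1, WIPI2, FLCN and ATP6V1A. Both PLC libraries had higher FPKM than both Huh7 libraries in 20 of the 38 genes with FPKM over 0.5 in each line (31.3% of all such genes) and lower FPKM in 5 (32.4% of all such genes). That filter was chosen after the data were seen, since TFEB and MITF pass 0.5 in PLC alone. DESeq2 did not call TFEB (adjusted p = 0.0768) or FLCN (adjusted p = 0.0626), and without glucose as a block WIPI2, FLCN, CTSB, HEXA and ATP6V0D1 did not pass in edgeR. Of the 15 hepatocyte markers 13 were lower in PLC in the same fit, and their part in the line differences was not tested. As the libraries of a line are not replicate cultures, the test compares the lines as sequenced here.

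**Figure D4:**
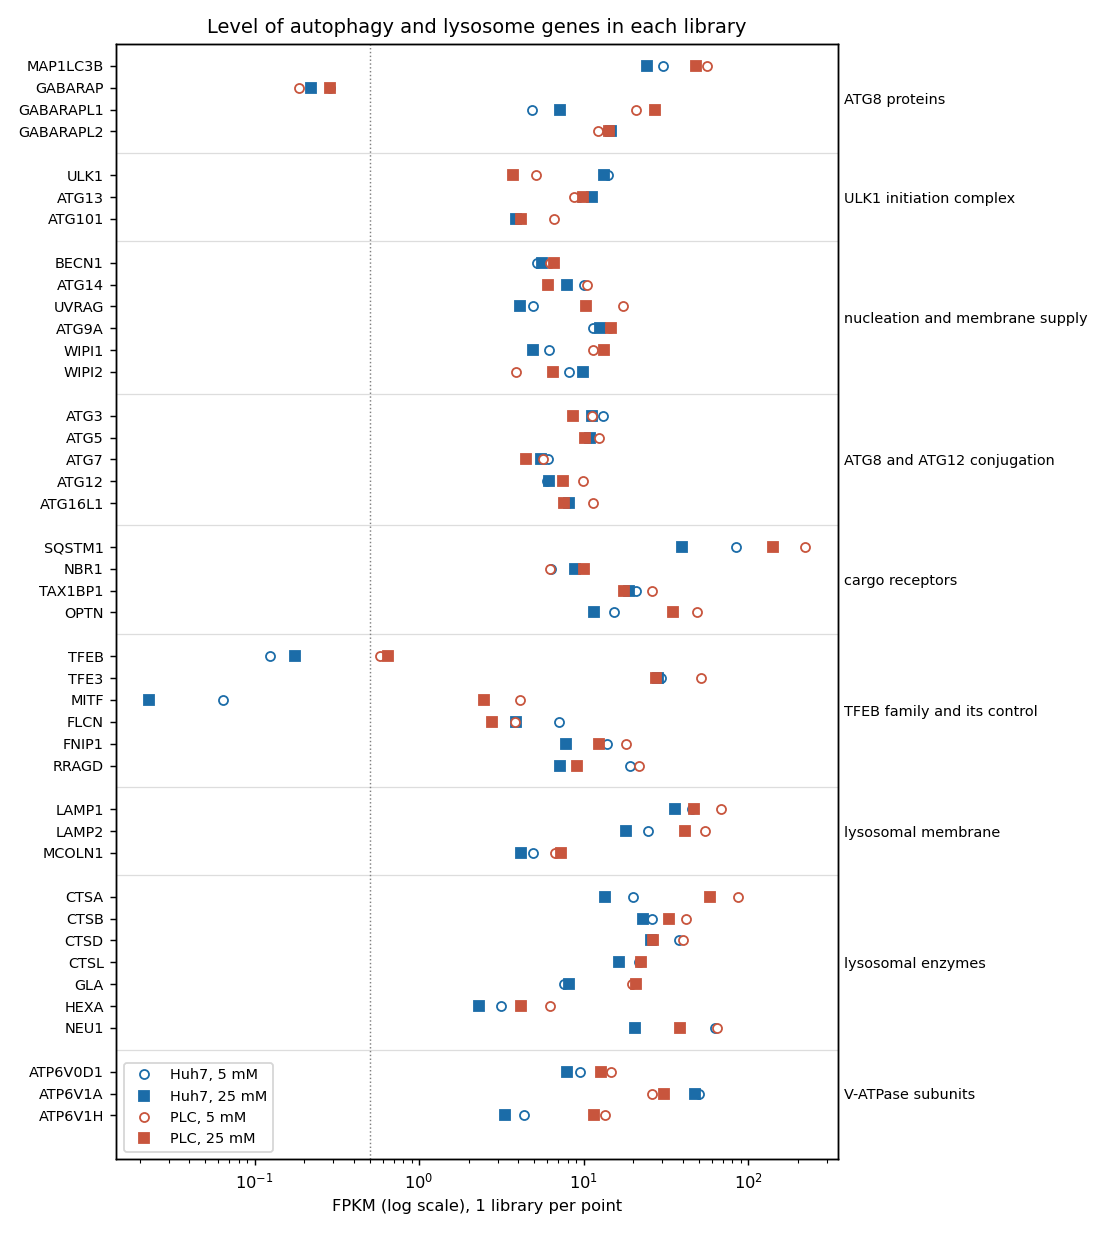
FPKM of each gene (horizontal axis, log scale) in the 4 libraries, grouped by role, with Huh7 in blue, PLC in red, 5 mM as open circles and 25 mM as filled squares, and the FPKM minimum of 0.5 as a dotted line. Red points lie to the right for CTSA, OPTN, SQSTM1 and MITF and to the left for ULK1 and ATP6V1A, and GABARAP lies under the minimum in all 4.

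MITF, a factor best known from melanocytes, differed most, with a log2 difference of 6.31 (SE 0.43, edgeR adjusted p = 1.13e-07) that rests on 10 and 5 reads in Huh7. CTSA was higher in PLC by 2.13 on the log2 scale (SE 0.21, edgeR adjusted p = 3.15e-06), which is 4.38-fold, with similar values at both glucose concentrations (4.35-fold and 4.33-fold in FPKM at 5 and 25 mM). CTSA held 18.8% and 17.2% of the summed FPKM of the 4 cathepsins in Huh7 and 45.6% and 41.8% in PLC. Its exons overlap those of NEURL2 (1038 of 5856 bases) and PLTP (200 bases) on the opposite strand, and neither had as many reads as CTSA in any library. CTSD, in the same sum, shares 1298 of 3079 bases with AC068580.4 on the same strand, and how shared reads were counted is not given. GABARAPL1 was higher in PLC by 2.02 (adjusted p = 1.98e-05 by edgeR), OPTN by 1.64 (adjusted p = 4.90e-05), SQSTM1 by 1.61 (adjusted p = 1.79e-05) and ATP6V1H by 1.72 (adjusted p = 9.67e-05). ULK1 was lower in PLC, at -1.65 on the log2 scale (edgeR adjusted p = 0.000121), with FPKM of 5.11 and 3.70 against 14.1 and 13.3. The catalytic V-ATPase subunit ATP6V1A was lower (-0.79) where ATP6V0D1 (0.66) and ATP6V1H were higher, so the 3 subunits did not keep the same proportion in the lines. RRAGD and NEU1, the genes that fell with glucose, did not pass between the lines, with log2 differences of 0.27 and 0.48 and edgeR adjusted p of 0.370 and 0.113.

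Of 174 other genes of the same pathways, 165 were tested, and the quasi-likelihood test of edgeR called 3 lower (0.314% of all genes) and 0 higher (0.0646% of all genes) with glucose. All 3 control mTORC1 or act below it, among 38 such genes tested. SESN2, a sensor that restrains mTORC1 when amino acids are short, had FPKM 19.8, 4.23, 37.5 and 10.2 in Huh7 at 5 and 25 mM and PLC at 5 and 25 mM and fell by 2.13 on the log2 scale (edgeR adjusted p = 0.00183). DDIT4 (REDD1), a stress-induced inhibitor of mTORC1, had FPKM 9.11, 1.18, 31.1 and 7.52 and fell by 2.55 (edgeR adjusted p = 0.00287). EIF4EBP1, the translation repressor that mTORC1 inactivates, had FPKM 130, 66.8, 309 and 127 and fell by 1.20 (edgeR adjusted p = 0.0420). EIF4EBP1 did not pass with at least 10 counts in every library (edgeR adjusted p = 0.0853), and none of the 3 passed without the line as a block. Among 41 further lysosomal enzymes, ASAH1 (acid ceramidase) and TPP1 (a peptidase) passed the thresholds downwards in both lines (3.82% of all genes), with ratios of 0.414 and 0.591, and 0.589 and 0.589. Of 27 further membrane genes M6PR and IGF2R, the receptors that carry new enzymes to the lysosome, did so (3.82% of all genes), with ratios of 0.588 and 0.654, and 0.648 and 0.660. Of 15 further receptors BNIP3L, a mitochondrial one, passed upwards in both lines (5.3% of all genes) at 1.63 and 1.87. The median log2 change was -0.31 in membrane genes, -0.33 in V-ATPase subunits, -0.22 in mTORC1 and AMPK control, -0.17 in enzymes, -0.05 in receptors and -0.04 in autophagy machinery, and 0 genes of these 5 lists outside mTORC1 control passed the adjusted threshold. Of the 12 autophagy genes listed as ATF4 or CHOP targets, SQSTM1 alone passed the thresholds in both lines, and their median was -0.23.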

How the data were processed

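Ribosomal RNA was depleted and directional libraries were built from total RNA of Huh7 and PLC cells. The authors deposited 1 table of raw counts, the whole-number reads assigned to each gene, with a column of gene lengths. The submitters' processing notes name HISAT2, featureCounts and hg38, without versions. Whether counting used strand, and which annotation it used, is not given in the sources used here, so reads of a gene and its antisense partner could be mixed. Of 59657 lines 59652 were used, as 5 lines of a broken ANK2 entry hold no values in their own columns.

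FPKM was calculated from the count, the length and the library total. Ratios used a pseudocount of 0.1. The shared change and the line difference were tested with edgeR 4.0.16 (R 4.3.3, filterByExpr, TMM, glmQLFit and glmQLFTest) on counts with cell line and glucose as terms, and SE is the log2 change divided by the root of the F statistic. DESeq2 1.42.0 and limma 3.58.1 were alternatives. Exon overlaps were taken from the exon positions in the table, and gene classes from GENCODE release 44. The code was tested on simulated data. Alternatives were pseudocounts, FPKM minimums, library scaling, thresholds, removal of trends with GC content and length in 20 groups, filters and no block. Reads or FPKM of all 4 libraries are given for genes past the thresholds in a line or called in the shared test. The same holds for the ATG8 proteins, the TFEB family and genes whose intervals exclude 1 on opposite sides in the lines. Genes called between the lines are all named, with values of that comparison for some of them. Other pathway genes are named at an adjusted p under 0.05, or, at most 3 per list, past the thresholds in both lines with at least 20 reads. The genes, roles and lists were chosen with earlier results of these data known.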

Additional observations from a re-analysis of the deposited data

Results flagged for a closer look

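ATP6V1A, the catalytic subunit of the V-ATPase, had a high-glucose to low-glucose ratio below 1 in Huh7 (0.944, 0.912 to 0.978) and above 1 in PLC (1.18, 1.13 to 1.24). The intervals excluded 1 on opposite sides also with TMM scaling (0.919 and 1.09) and with DESeq2 size factors (0.930 and 1.08). They cover counting error only, and no test of the difference was made, since each line had 1 library at each glucose concentration.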

How the results depend on the processing

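No paired analysis was possible because the labels give no replicate numbers to pair libraries by, and the pairing by cell line is already the block of the shared test. With 1 library for each line and glucose concentration, no library was left out. With ratios over 2 or under 0.5, 3 genes were lower in Huh7 (5 with the thresholds of the study), 1 was lower in PLC (10) and 0 were higher in PLC (2). TMM shifted every log2 ratio by -0.04 in Huh7 and -0.12 in PLC, and DESeq2 size factors by -0.02 and -0.13. In PLC 16 genes were then lower with TMM and 17 with DESeq2 size factors, and 1 was higher with either. In Huh7 7 were lower with TMM, with DESeq2 size factors and with the trend on GC content and length removed, CTSA and CTSD in addition. In PLC 7 were lower with a pseudocount of 1, where ATG101, ATG16L1 and MITF did not pass, and 9 with the trend removed, where ATG16L1 did not. The share of all genes past the thresholds under these alternatives is not given here. In the shared test the 2 genes lower became 0 with at least 10 counts in every library, where RRAGD had an adjusted p of 0.0537 and NEU1 of 0.1001, and 0 without the cell line block. Over all alternatives, the adjusted p of RRAGD ran from 1.08e-05 (DESeq2) to 0.99996 (no block). Without the glucose block 2 genes were lower in PLC than in Huh7 (4 with it). Over the 28 genes whose exons overlap no protein-coding gene, an alternative added after the data were seen, 9 were higher in PLC (15 of all 41). The 28 still hold genes such as ATG9A, FLCN and CTSD, whose exons overlap same-strand genes not classed as protein-coding. No gene that passed in a comparison changed direction there under these alternatives. Of the others, the ratio crossed 1 for ATG5 (TMM) and ATG16L1 (TMM and DESeq2 size factors) in Huh7. In PLC it did so for BECN1, ATG9A, CTSL and GLA with TMM and DESeq2 size factors, for MCOLN1 with DESeq2 size factors, and for ATG9A and CTSL with the trend removed. Of the recalculated log2 ratios of single genes called in a line, 23 values stayed within the interval in Huh7 and 2 moved, and 38 stayed and 22 moved in PLC, mostly with the scaling. The cause of these differences was not tested.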
